A study of Homo sapiens with 9 samples.

Results

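The genes described here encode the cytosolic ribosomal proteins, chosen by symbol (RPL or RPS followed by a number, with RPLP0, RPLP1, RPLP2 and RPSA) and by a mean level of at least 10 CPM over 9 libraries. CPM is a gene's share of a library's counts, scaled so that all libraries have the same total. Of the 56809 rows of the gene table, 85 carried such a symbol and 82 reached that level, 51 of the large subunit and 31 of the small subunit. The rule used symbols and mean levels over all libraries and no difference between groups, but it was set with earlier results of these data known. The 3 rows left out were RPL10L with a mean of 0.0338 CPM, RPL3L with 0.135 CPM and RPS27L with 8.42 CPM, and the members nearest above the threshold were RPL39L with 14.5 CPM, RPL22L1 with 14.7 CPM and RPL26L1 with 46.2 CPM. The libraries came from MDA-MB-468, an established human breast adenocarcinoma line, measured by bulk sequencing of polyadenylated RNA. Cells had been infected with the lentiviral vector pSicoR. The control group received the vector without a hairpin, and the other groups received the short hairpins shLMO2-1 or shLMO2-2, both directed by name at LMO2, a cofactor of transcription with LIM domains. Each group had 3 libraries, and none of these groups carried a non-targeting hairpin. Nothing in the labels says whether the 3 libraries of a group came from separate cultures, so p-values measure the spread between these libraries, which may be technical.

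The cytosolic ribosome translates nuclear mRNA. Its small subunit decodes the message, its large subunit joins the amino acids, and most ribosomal proteins sit on the ribosomal RNA of one of these particles as a single copy. Their mRNAs are short, abundant and long-lived, and most begin at a cytidine followed by a run of pyrimidines, the 5′ terminal oligopyrimidine or TOP element, through which mTOR and the RNA-binding protein LARP1 control their translation and stability. Proliferating tumour cells devote a large part of their transcription and translation to ribosomes, and ribosomal proteins that are not built into a particle are degraded or, for a few of them, act on other pathways.

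The starts of these mRNAs are shown first because the shared TOP element is their best known common sequence. Starts were taken from RefSeq (GRCh38.p14), where 66 of the 82 members had an entry. Each window below holds 15 bases before the listed start and 15 bases from it, and capitals mark the run of C and T letters that opens the transcript. The first 6 are examples with such a run among the members that were higher in the mean of both hairpins. RPS29 is the member with the largest difference, and the next 3 are members with small differences. The last 2 are paralogs, which are genes related in sequence to another gene of the family.
RPL11, chr1:23691791-23691820, plus strand: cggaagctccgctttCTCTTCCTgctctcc
RPL29, chr3:51995881-51995910, minus strand: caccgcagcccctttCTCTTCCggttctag
RPL12, chr9:127451392-127451421, minus strand: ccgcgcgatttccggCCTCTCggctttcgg
RPS23, chr5:82278340-82278369, minus strand: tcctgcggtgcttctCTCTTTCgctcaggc
RPL10, chrX:154398362-154398391, plus strand: caggcggaggagcgcCTCTTTCCCTTCggt
RPL36A, chrX:101390996-101391025, plus strand: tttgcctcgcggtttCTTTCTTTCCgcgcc
RPS29, chr14:49598696-49598725, minus strand: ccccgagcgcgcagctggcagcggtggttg
RPL22, chr1:6199581-6199610, minus strand: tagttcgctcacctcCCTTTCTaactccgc
RPS12, chr6:132814554-132814583, plus strand: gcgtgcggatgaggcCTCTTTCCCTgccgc
RPL21, chr13:27251543-27251572, plus strand: cggccccgcctctttCCTTTCggccggaac
RPL7L1, chr6:42879601-42879630, plus strand: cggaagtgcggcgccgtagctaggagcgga
RPL22L1, chr3:170870181-170870210, minus strand: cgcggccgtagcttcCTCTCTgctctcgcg
A start with C as its first base and at least 5 C or T letters in a row, read on the transcribed strand only, was found in 47 of the 66 members (71.2%). The same rule was met by 4.07% of the 35116 entries of the table, and by 723 of the 10479 other genes tested that had an entry (6.9%). The listed starts of RPS29 and RPL7L1 had no such run. Of the 19 members with an entry and no run, 9 were also higher in the mean of both hairpins by the test described below. A listed start is an annotation and need not be the start used in these cells.

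Library totals lay between 15494486 and 23069456 counts. LMO2, the gene the hairpins are named for, had 4, 35 and 19 counts in the control libraries, 2, 1 and 6 with shLMO2-1 and 1, 4 and 3 with shLMO2-2. Its log2 fold change was -2.44 (SE 0.81, adjusted p = 0.0907) with shLMO2-1 and -3.02 (SE 0.82, adjusted p = 0.0441) with shLMO2-2. All 7 epithelial marker genes had counts in every library, and they summed to 11553 to 12281 CPM in control, 14346 to 15088 CPM with shLMO2-1 and 13066 to 14243 CPM with shLMO2-2. EGFR, at 4815 to 7875 CPM, was the largest term of that sum. EPCAM (439.5 to 442 CPM in control, 372 to 409.7 CPM with the hairpins) and CDH1 (315 to 338 and 276 to 305 CPM) were lower in every hairpin library than in every control. KRT8 went the other way, from 1768 to 2013 CPM in control to 2246 to 2663 CPM with the hairpins. For KRT7, KRT18, KRT19 and EGFR the hairpin and control libraries overlapped. The 10 markers of immune, endothelial and stromal cells summed to 12.1 to 19.1 CPM, 17.1 to 21.8 CPM and 16.6 to 20.7 CPM in the same order, most of it COL1A1, with CD3E at 0 in all 9 libraries.

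Ribosomal protein transcripts took a larger share of the counts in the hairpin libraries than in most control libraries. The 82 members held 4.23%, 5.32% and 4.85% of all counts in the control libraries, 5.17%, 5.42% and 6.05% with shLMO2-1, and 5.77%, 5.79% and 6.38% with shLMO2-2. All 3 shLMO2-2 libraries lay above all control libraries, and the shLMO2-1 libraries overlapped them. The group means were 4.80% ± 0.545 (SD, n = 3), 5.55% ± 0.456 (SD, n = 3) and 5.98% ± 0.347 (SD, n = 3). In bulk RNA, a larger share from more RNA per cell and one from more cells of a kind rich in these transcripts cannot be told apart.

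**Figure D1:**
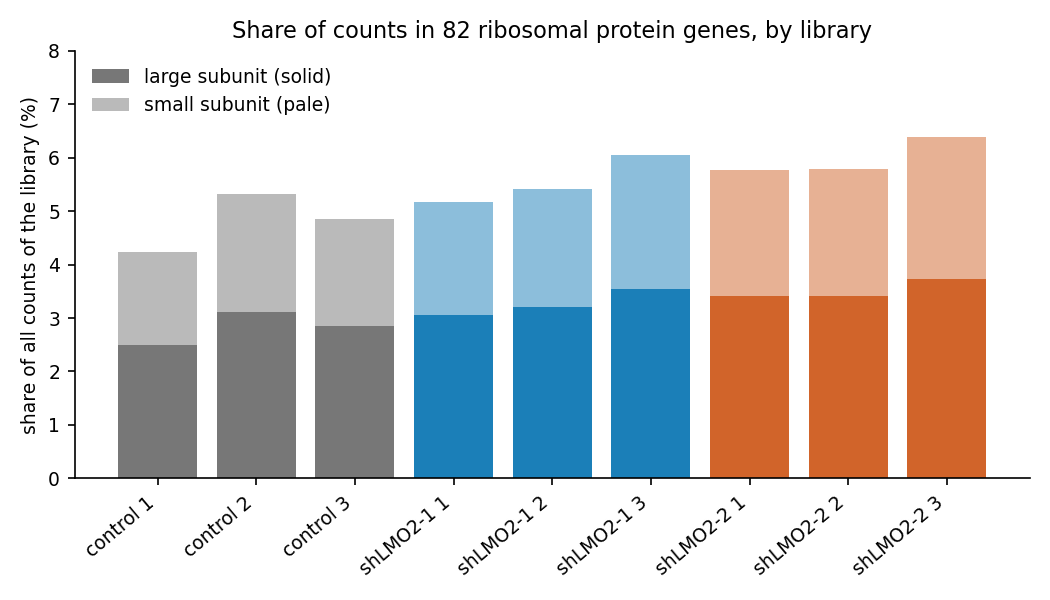
Share of each library's counts, in percent, that fell in the 82 ribosomal protein genes, with the large subunit as the solid and the small subunit as the pale part of each bar. Control 1 is the lowest bar at 4.23% and the third shLMO2-2 library the highest at 6.38%.

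Both subunits moved together from library to library. Large-subunit genes held 1.40 to 1.45 times the counts of small-subunit genes in every library, and the ratio was 1.42 ± 0.0163 in control, 1.44 ± 0.0126 with shLMO2-1 and 1.43 ± 0.0221 with shLMO2-2 (SD, n = 3 each). The spread within groups was of the same order as the difference between them. Control 1 was the lowest of all 9 libraries for 75 members, and the third shLMO2-2 library was the highest for 72. Within the control group, control 1 was lowest for 76 members and control 2 highest for 79. Within shLMO2-1, the first library was lowest for 69 members and the third was highest for 77, and within shLMO2-2 the third was highest for 79. Libraries of the same group thus stood apart from each other in most members at the same time.

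Other measures moved with that shift. The median over members of log2 CPM minus the gene's mean was -0.39, -0.04 and -0.18 in the control libraries, -0.08, 0.01 and 0.19 with shLMO2-1, and 0.09, 0.12 and 0.29 with shLMO2-2. Mitochondrial transcripts took 1.67%, 1.33% and 1.54% of counts in control, 1.76%, 1.55% and 1.41% with shLMO2-1, and 1.79%, 1.65% and 1.55% with shLMO2-2. Within each group the order of the mitochondrial share was the reverse of the order of the members. Between groups it was not, since the mean mitochondrial share was 1.51% in control, 1.57% with shLMO2-1 and 1.67% with shLMO2-2. Protein-coding genes other than members whose transcripts were under 1000 nt had the order of the members within control and within shLMO2-1, over a narrower range, with medians from -0.08 in control 1 to 0.06 in the third shLMO2-2 library. Within shLMO2-2 the third library was the highest for both, and libraries 1 and 2 both stood at 0.01 for the short genes. The part of these library-wide measures in the results below was not tested.

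**Figure D2:**
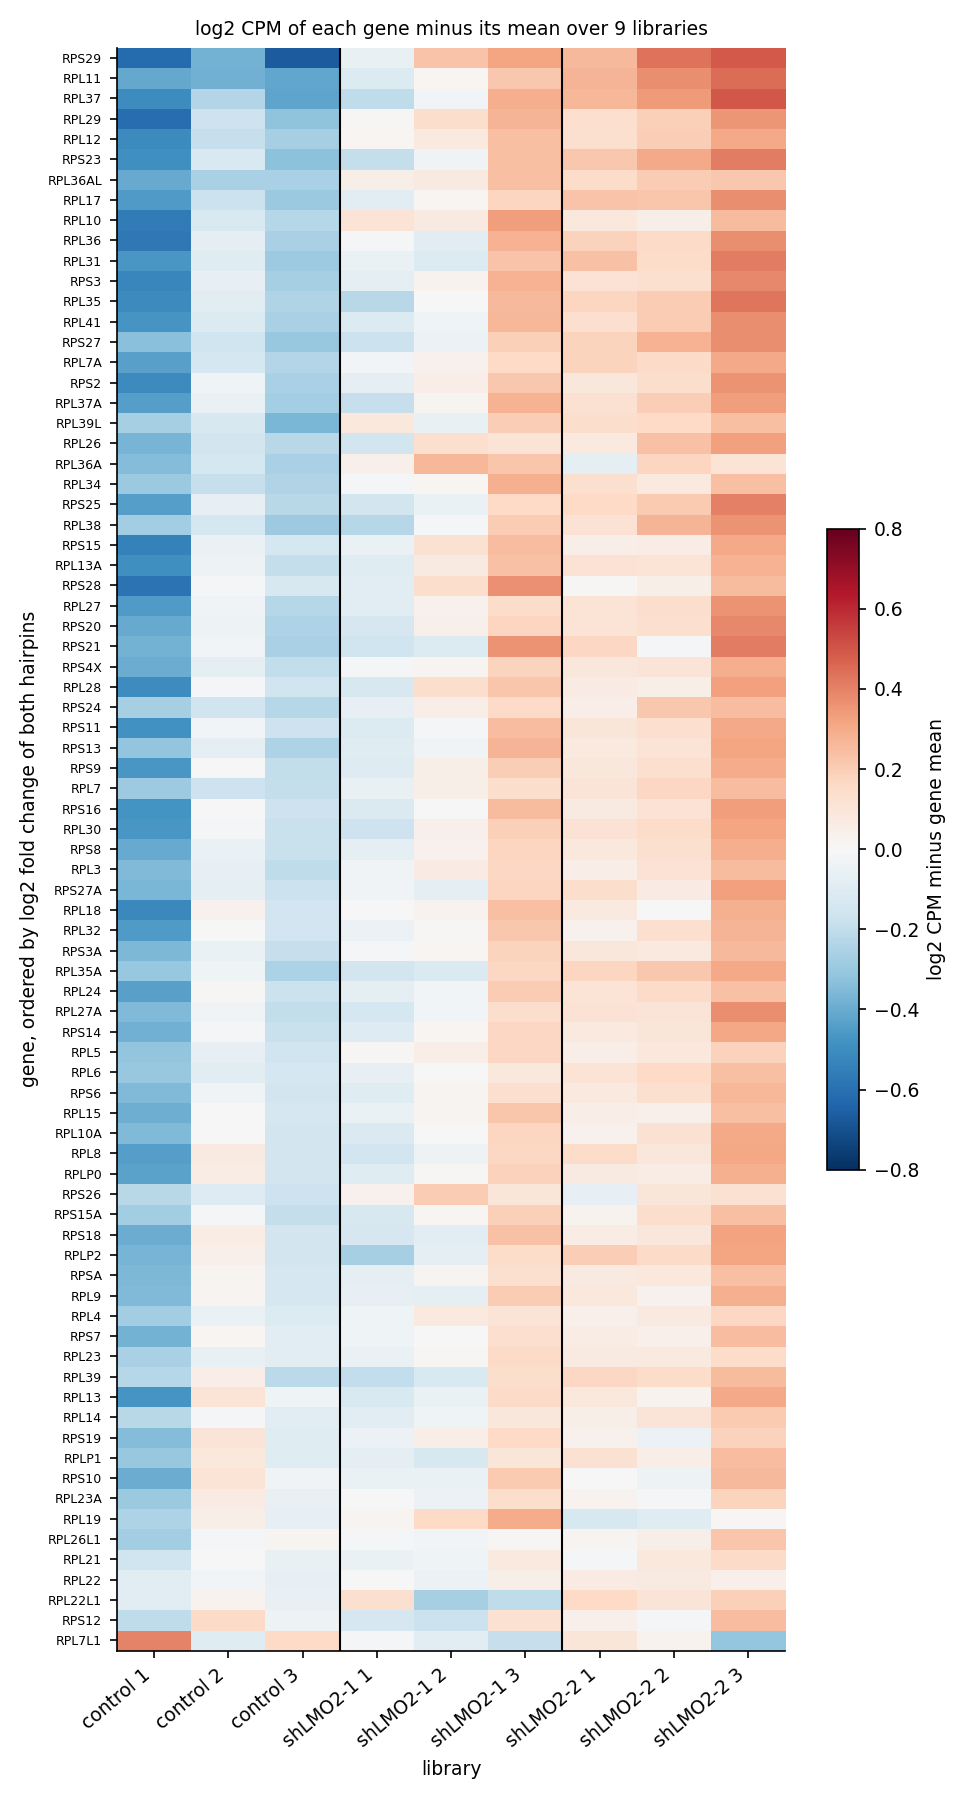
Heat map of log2 CPM minus the gene's mean over 9 libraries for 79 of the 82 genes, with 1 row per gene ordered by the log2 fold change of both hairpins and 1 column per library. Control 1 is blue (lower) for nearly all genes and the third shLMO2-2 library red (higher), and RPL7L1 in the bottom row shows the reverse.

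Many ribosomal protein transcripts rose with each hairpin against control and none fell. With shLMO2-1, 15 of the 82 members were called higher and 0 lower by edgeR's quasi-likelihood test at an adjusted p under 0.05, against 4.54% of the 14709 genes tested that were called higher. The median log2 fold change of the members was 0.26, an increase of 19.4%, and 79 of 82 were positive, against a median of 0.00 over all genes tested. With shLMO2-2, 41 members were called higher and 0 lower, against 4.94% of all genes called higher, with a median of 0.37 (29.6%) and 81 of 82 positive. For the mean of both hairpins, 42 members were called higher and 0 lower, against 6.47% of all genes called higher, with a median of 0.31 (24.4%) and 81 positive. At an unadjusted p under 0.05, 49, 72 and 69 members were higher in these 3 comparisons and 0 lower in each, where 1835, 1911 and 2105 of the 14709 genes were higher and 1684, 1756 and 2016 lower. The count of 0 lower members also held with DESeq2 and limma-voom.

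Both subunits contributed calls. Large-subunit members had a median log2 fold change of 0.25 with shLMO2-1 and 0.37 with shLMO2-2, and small-subunit members 0.26 and 0.38. For the mean of both hairpins, 26 of 51 large-subunit and 16 of 31 small-subunit members were called higher. With shLMO2-1, the levels of 26 members lay above all control levels in all 3 libraries, against 14.0% of all genes, and with shLMO2-2 the same was true of 71 members, against 15.3%. For 26 members all 6 hairpin libraries lay above all 3 controls, against 8.12% of all genes, and for 0 members they lay below them, against 8.59%.

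The 2 comparisons share the 3 control libraries. Of the 15 members called with shLMO2-1, 14 (93.3%) were also called with shLMO2-2, where they made up 34.1% of the calls. RPS26, which lines the path where mRNA leaves the small subunit, was the 1 member called with shLMO2-1 alone, and it is named here after its values were seen. Its log2 fold change was 0.28 (SE 0.07, adjusted p = 0.0423) with shLMO2-1 and 0.22 (SE 0.07, adjusted p = 0.0933) with shLMO2-2. 40 members were called with neither hairpin.

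How many members passed the test changed with single libraries. Without control 3, the count was 5 with shLMO2-1, 15 with shLMO2-2 and 15 for the mean of both, and without control 1 it was 9, 23 and 21. Without control 2 it was 59 with shLMO2-2 and for the mean of both. The count with shLMO2-1 was also 5 without the second of its own libraries and 3 without the third, and 9 without the second shLMO2-2 library. The count with shLMO2-2 was 26 without the second shLMO2-1 library and 23, 16 and 13 when its own libraries 1, 2 and 3 were left out in turn. For the mean of both it was 28 and 27 without libraries 2 and 3 of shLMO2-1, and 27 and 24 without libraries 2 and 3 of shLMO2-2. The direction was steadier: over the 9 fits that each left out a library the median log2 fold change stayed between 0.15 and 0.33 with shLMO2-1, 0.26 and 0.45 with shLMO2-2, and 0.20 and 0.40 for the mean of both, and no member was called lower.

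**Figure D3:**
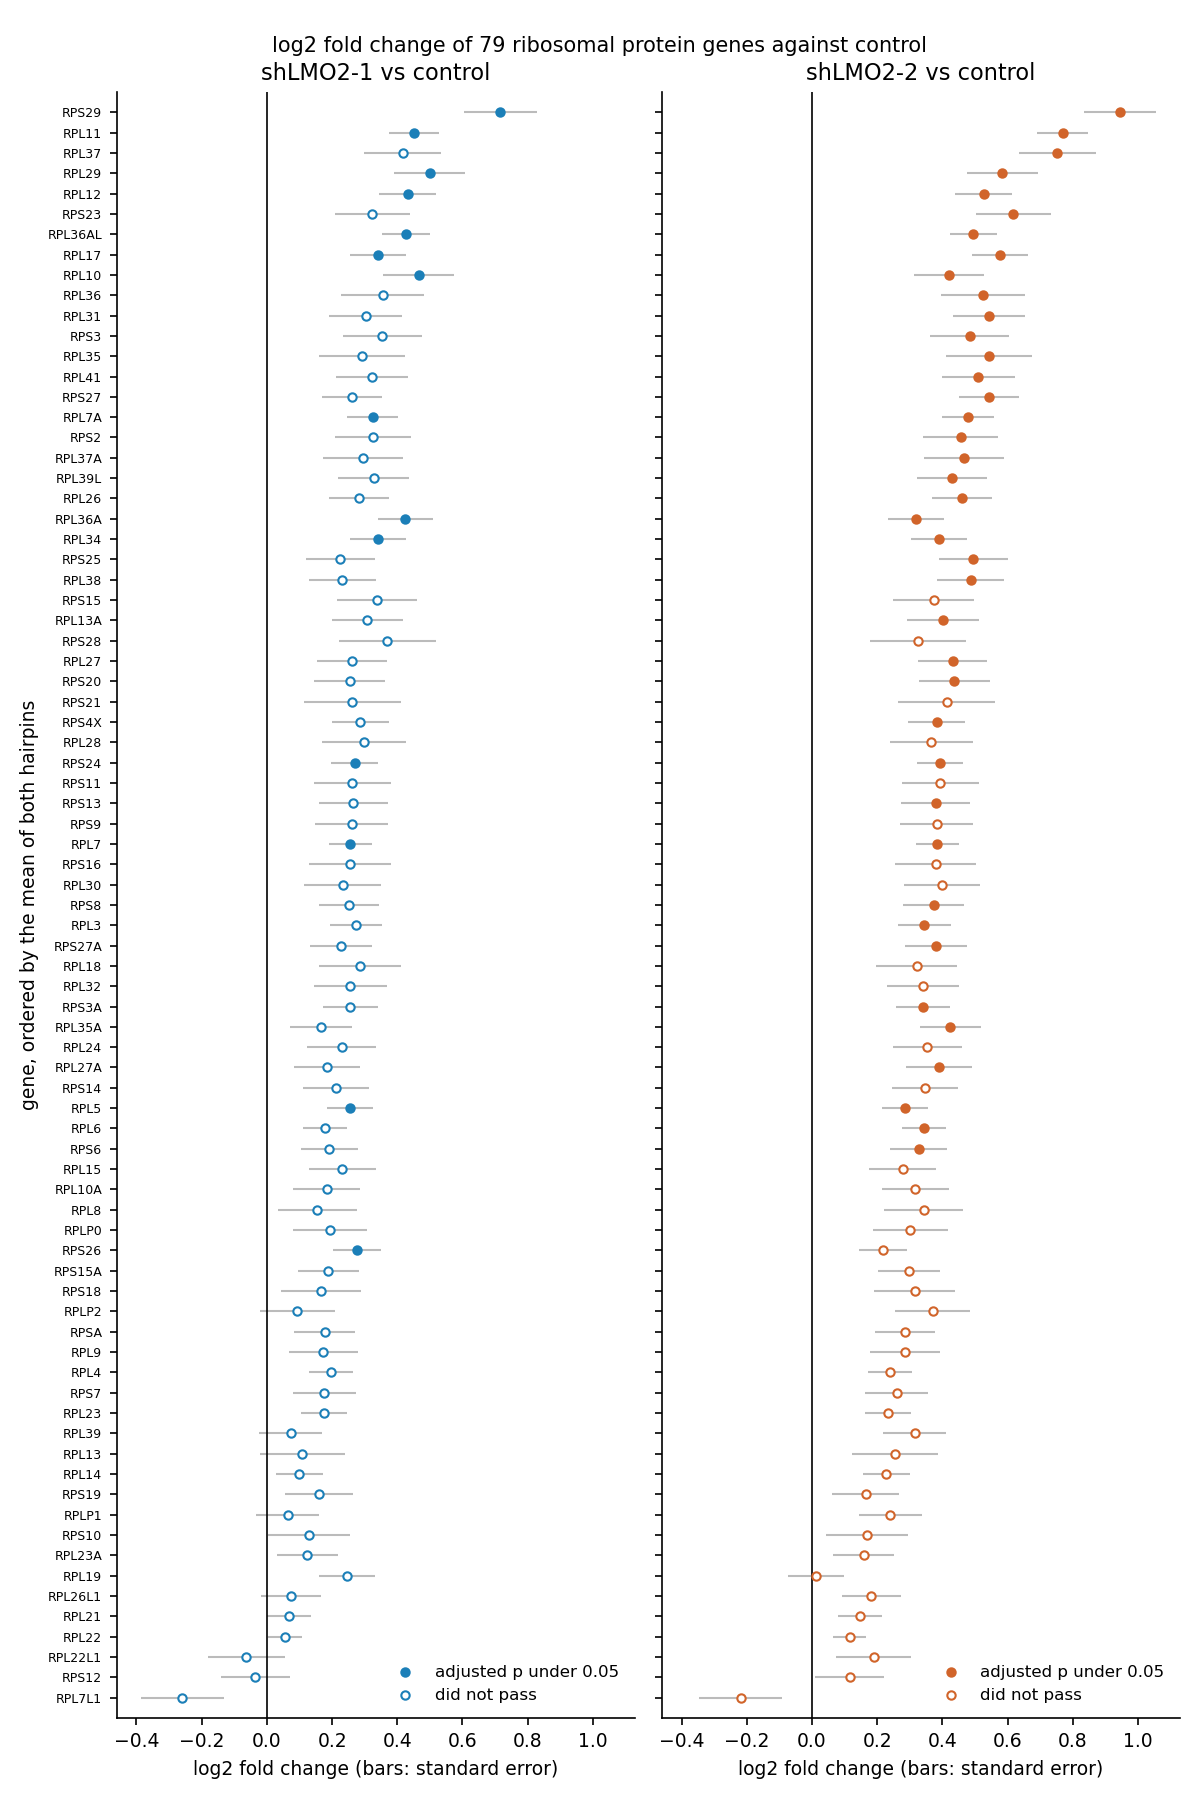
log2 fold change against control of 79 of the 82 genes (horizontal axis, bars are standard errors) with shLMO2-1 on the left and shLMO2-2 on the right, filled where the adjusted p was under 0.05. RPS29 lies farthest right in both panels, at 0.72 and 0.95, and RPL7L1 farthest left.

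For the mean of both hairpins, 15 members were called in all 9 of those fits, among them RPL7, RPL7A, RPL10, RPL11, RPL12, RPL17, RPL29, RPL34, RPL36A, RPL36AL, RPL37, RPS24, RPS27 and RPS29. With shLMO2-1 it was 3, RPL11, RPL36AL and RPS29, and with shLMO2-2 it was 13. RPL11, RPL36AL and RPS29 were the members called in every one of those fits in all 3 comparisons.

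RPS29, a zinc-binding protein of the head of the small subunit and a gene mutated in Diamond-Blackfan anaemia, showed the largest change (chr14:49570984-49599164, minus strand, GENCODE 29 on GRCh38). It stood at 55.7, 65.8 and 53.9 CPM in the control libraries, 82.01, 99.98 and 106 CPM with shLMO2-1 and 102, 115 and 120.2 CPM with shLMO2-2. All 6 hairpin libraries lay above all controls. The log2 fold change was 0.72 (SE 0.11, adjusted p = 0.00354) with shLMO2-1 and 0.95 (SE 0.11, adjusted p = 0.000795) with shLMO2-2.

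RPL11 and RPL5 join 5S ribosomal RNA in the particle that forms the central protuberance of the large subunit and that can also bind MDM2, the ubiquitin ligase of p53. RPL11 (chr1:23691742-23696835, plus strand) was at 475, 483 and 472 CPM in control, 586, 639 and 731 CPM with shLMO2-1 and 762, 817 and 858 CPM with shLMO2-2. The 3 groups did not overlap, and the control libraries differed little among themselves. Its log2 fold change was 0.45 (SE 0.08, adjusted p = 0.0062) and 0.77 (SE 0.08, adjusted p = 0.000298). RPL5 rose by less, from 934, 1111 and 1042 CPM in control to 1173, 1206 and 1304 CPM with shLMO2-1 and 1206, 1233 and 1324 CPM with shLMO2-2, a log2 fold change of 0.25 (SE 0.07, adjusted p = 0.0489) and 0.29 (SE 0.07, adjusted p = 0.0314). The hairpin libraries of RPL5 all lay above its controls, but its calls with either hairpin were lost in several of the fits that left out a library.

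RPL37, a zinc-binding protein of the large subunit, was at 310.2, 374 and 328 CPM in control, 381, 432 and 538 CPM with shLMO2-1 and 529.6, 556 and 621 CPM with shLMO2-2. All hairpin libraries were above all controls. The log2 fold change passed the test with shLMO2-2 (0.75, SE 0.12, adjusted p = 0.00376) and not with shLMO2-1 (0.42, SE 0.12, adjusted p = 0.0527).

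Several large-subunit proteins rose with both hairpins. RPL29, a surface protein of the large subunit also known to bind heparin, was at 331, 451 and 405 CPM in control, 509, 558 and 612 CPM with shLMO2-1 and 556, 577 and 647 CPM with shLMO2-2, a log2 fold change of 0.50 (SE 0.11, adjusted p = 0.0184) and 0.58 (SE 0.11, adjusted p = 0.00897). RPL12, which sits at the base of the stalk where elongation factors bind, had log2 fold changes of 0.43 (SE 0.09, adjusted p = 0.014) and 0.53 (SE 0.09, adjusted p = 0.0056), with 534 to 668 CPM in control, 770.0 to 900.0 CPM with shLMO2-1 and 831 to 938 CPM with shLMO2-2. RPL10, a late-joining protein near the catalytic centre, had 0.47 (SE 0.11, adjusted p = 0.0252) and 0.42 (SE 0.11, adjusted p = 0.0365). In these 3 genes the hairpin libraries all lay above the controls and the hairpin groups overlapped each other. RPL17, which lines the exit tunnel, rose by 0.34 (SE 0.09, adjusted p = 0.0345) and 0.58 (SE 0.09, adjusted p = 0.00287), with all shLMO2-2 libraries above all shLMO2-1 libraries, and a read-through gene shares its exons.

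Some members passed the test with shLMO2-2 and not with shLMO2-1, a contrast that is not itself evidence of a difference between hairpins. RPS23, a protein of the decoding centre, was at 252, 326 and 283 CPM in control, 311, 348 and 419 CPM with shLMO2-1 and 412, 438 and 471 CPM with shLMO2-2. Its shLMO2-1 libraries overlapped the controls and its shLMO2-2 libraries did not, and the log2 fold change was 0.32 (SE 0.11, adjusted p = 0.112) with shLMO2-1 and 0.62 (SE 0.11, adjusted p = 0.00904) with shLMO2-2. RPL31, RPL35, RPL41 and RPS27 had shLMO2-2 log2 fold changes of 0.54, 0.54, 0.51 and 0.54 with adjusted p of 0.0143, 0.0298, 0.0198 and 0.0058, and shLMO2-1 values of 0.30, 0.29, 0.32 and 0.26 that did not pass. RPL41 encodes a very short basic peptide that bridges the subunits.

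Proteins known for roles beyond ribosome structure gave mixed results. RPS6, the substrate of the S6 kinases downstream of mTOR, had a log2 fold change of 0.19 (SE 0.09, adjusted p = 0.212) with shLMO2-1 and 0.33 (SE 0.09, adjusted p = 0.0419) with shLMO2-2. RPS27A, made as a fusion to ubiquitin, had 0.23 (SE 0.10, adjusted p = 0.171) and 0.38 (SE 0.10, adjusted p = 0.0331). RPSA, also described as a laminin receptor, had 0.18 and 0.28, and RPS19, the gene most often mutated in Diamond-Blackfan anaemia, had 0.16 and 0.16, with no value passing the test. RPS3, at the mRNA entry channel, was called with shLMO2-2 only (0.48, SE 0.12, adjusted p = 0.0335).

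None of the 3 stalk proteins, which recruit translation factors to the large subunit, passed the test with either hairpin. RPLP0 had log2 fold changes of 0.19 (SE 0.11, adjusted p = 0.335) and 0.30 (SE 0.11, adjusted p = 0.128), RPLP1 0.06 and 0.24, and RPLP2 0.09 and 0.37. The libraries varied widely within groups for these genes: RPLP0 was at 1397, 1955 and 1700 CPM in control and 1754, 1891 and 2133 CPM with shLMO2-1. RPL13A, RPLP0 and RPS3 had the highest mean CPM of the members, between 1806 and 2326 CPM. RPL13A, often used as a reference gene, was called higher with shLMO2-2 (0.40, adjusted p = 0.0447) and not with shLMO2-1 (0.31, adjusted p = 0.111).

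A few members had values near 0. RPL22, also known for binding a viral RNA and uncertain because pseudogene copies hold 5.68% of its summed count, was at 296, 309 and 299 CPM in control, 313, 303 and 323 CPM with shLMO2-1 and 327, 329 and 323 CPM with shLMO2-2. Its pooled within-group SD of log2 CPM was 0.0345, the smallest of the 82, where the median member had 0.154. The fold change on the log2 scale was 0.05 (SE 0.05, adjusted p = 0.567) with shLMO2-1 and 0.12 (SE 0.05, adjusted p = 0.192) with shLMO2-2. RPS12, a protein of the small-subunit head, was at 591, 758 and 662 CPM in control, 619.5, 603 and 739 CPM with shLMO2-1 and 698, 675 and 807 CPM with shLMO2-2, with all 3 groups overlapping. It had -0.04 (SE 0.11, adjusted p = 0.881) with shLMO2-1 and 0.12 (SE 0.11, adjusted p = 0.543) with shLMO2-2. RPS12, RPL7A, RPL19, RPL21 and RPS24 are named after their values were seen. At the other end, RPL13, RPS21 and RPS28 were among the 5 members with the largest within-group SDs, 0.211 to 0.233, and none of these 3 passed the test with either hairpin.

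**Figure D4:**
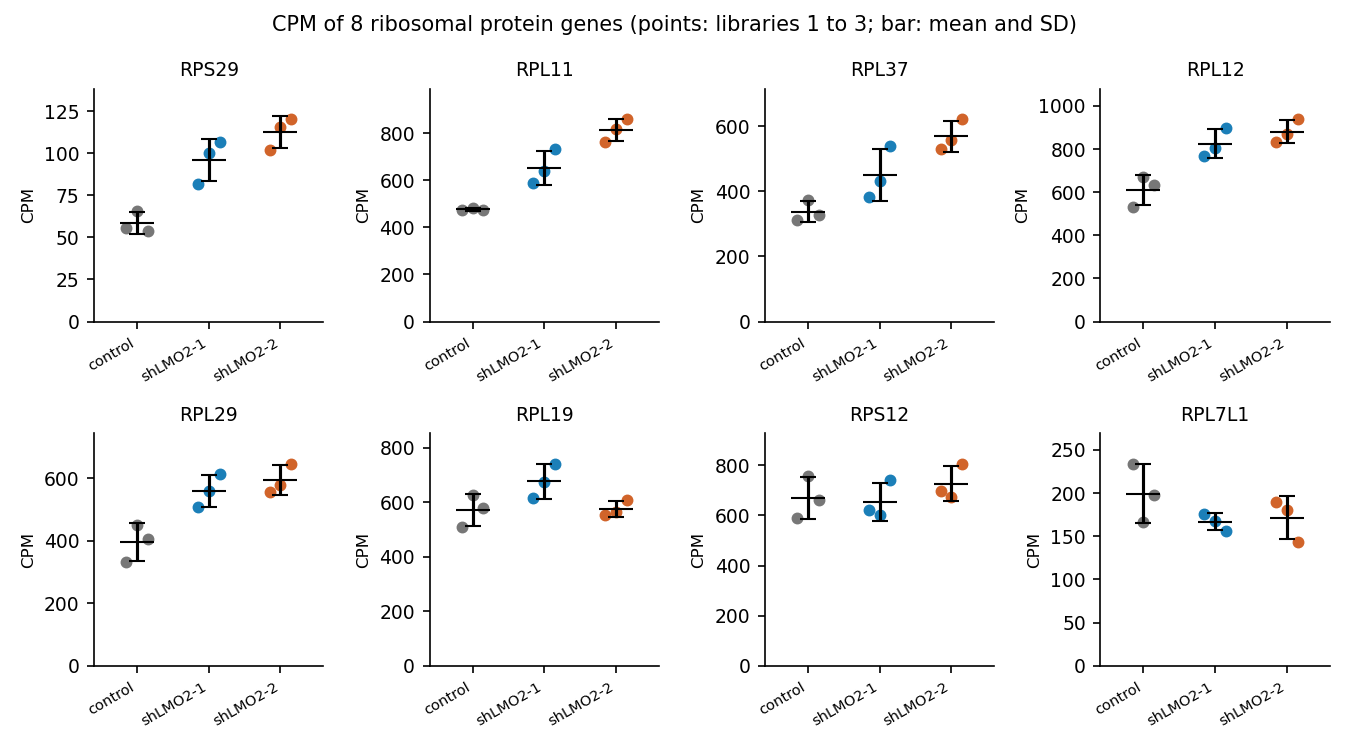
CPM (vertical axes, each from 0) of 8 ribosomal protein genes in the 3 libraries of each group, with the group mean and SD as bars. RPS29, RPL11, RPL37, RPL12 and RPL29 have all hairpin libraries above all controls, RPL19 is raised with shLMO2-1 only as a value that did not pass the test, RPS12 overlaps in all groups, and RPL7L1 is highest in control 1.

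Among the members, 5 paralogs were present together with their parent genes. Their counts were compared with the parent inside each library, which needs no scaling to library size. RPL7L1, a little studied paralog of RPL7, was the 1 member with a negative value in both hairpins. It was at 234, 166 and 198 CPM in control, 176, 168 and 156 CPM with shLMO2-1 and 190.3, 181 and 143 CPM with shLMO2-2, so the groups overlapped, and its differences of -0.26 (SE 0.13, adjusted p = 0.245) with shLMO2-1 and -0.22 (SE 0.13, adjusted p = 0.323) with shLMO2-2, on the log2 scale, did not pass the test. RPL7 itself rose by 0.26 (SE 0.07, adjusted p = 0.0357) and 0.38 (SE 0.07, adjusted p = 0.00587).

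The RPL7L1 count was 48.8%, 31.8% and 38.5% of the RPL7 count in control, 31.2%, 27.7% and 24.2% with shLMO2-1 and 30.3%, 27.4% and 20.6% with shLMO2-2. All 6 hairpin libraries lay below all controls, with control 2 and the first shLMO2-1 library close to each other. Within each group, the order of this ratio was the reverse of the libraries' order in the median level of the members. The median transcript length is 3769 nt for RPL7L1 and 931 nt for RPL7. The part of the library-wide shift in this ratio was not tested. The log2 ratio was lower by a mean difference of -0.55 (exact two-sided permutation p = 0.0238, the smallest that 6 against 3 libraries allow, and 0.0595 after Benjamini-Hochberg adjustment over the 5 pairs). RPL39L, a paralog best known from male germ cells, moved the other way. Its count was 3.75%, 3.41% and 3.47% of the RPL39 count in control, 4.68%, 4.03% and 4.02% with shLMO2-1 and 3.78%, 3.89% and 3.82% with shLMO2-2, a log2 difference of 0.18 (exact permutation p = 0.0238, adjusted 0.0595). For this ratio control 1 and the first shLMO2-2 library were close to each other. The log2 difference was 0.26 with shLMO2-1 and 0.11 with shLMO2-2. No pair passed the adjusted threshold.

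RPL39L was itself called higher with shLMO2-2 (0.43, SE 0.11, adjusted p = 0.0335), from 11.9, 13.2 and 11.2 CPM in control to 15.8, 16.1 and 17.0 CPM, while its parent RPL39 had 0.32 (SE 0.10, adjusted p = 0.0679). The ratio of RPL26L1 to RPL26 had a log2 difference of -0.24 (exact permutation p = 0.0476, adjusted 0.0794), since RPL26 was called with shLMO2-2 (0.46, SE 0.09, adjusted p = 0.0128) and RPL26L1 stood at 0.18 (SE 0.09, adjusted p = 0.248). RPL36AL and RPL36A both rose with both hairpins and their ratio had a log2 difference of 0.09 (exact permutation p = 0.286). RPL36AL went from 73.2, 80.7 and 80.9 CPM in control to 99.8, 102 and 115 CPM with shLMO2-1 and 107, 111 and 112 CPM with shLMO2-2. The ratio of RPL22L1 to RPL22 had a difference of -0.03 (exact permutation p = 0.81), and that value changed sign when the second or the third shLMO2-1 library was left out.

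The hairpins were also compared with each other. Of the 82 members, 77 were higher with shLMO2-2 than with shLMO2-1 as values, with a median log2 difference of 0.13 against 0.00 over all genes tested. No member was called by edgeR, against 0.768% of all genes called in either direction. At an unadjusted p under 0.05, 12 were higher and 1 lower, where 761 of all genes were higher and 791 lower, DESeq2 called 2, among them RPL11, and limma-voom called 0. RPL11 had a log2 difference of 0.32 (SE 0.08, adjusted p = 0.112). In 9 members all shLMO2-2 libraries lay above all shLMO2-1 libraries, against 8.97% of all genes. RPL19, a protein of a bridge between the subunits, was the 1 member with all shLMO2-2 libraries below all shLMO2-1 libraries, against 9.12% of all genes. It was at 510.2, 625 and 579 CPM in control, 615, 675 and 742 CPM with shLMO2-1 and 554, 565 and 609 CPM with shLMO2-2, a log2 difference between hairpins of -0.23 (SE 0.09, adjusted p = 0.345).

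To set each member beside the others rather than beside all genes, every library was scaled to its summed member counts, an analysis added after the data had been seen. This moves the median of all genes to -0.25 with shLMO2-1, -0.37 with shLMO2-2 and -0.32 for the mean of both, and 33.6% of all genes are then called in the mean of both, nearly all lower. Relative to the pool, 14 members were called in the mean of both, 8 higher and 6 lower, where 145 of the 14709 genes were called higher and 4790 lower. This scaling centres the members near 0 by construction, so a call here is a difference from the other members only. Among the higher were RPL10, RPL11, RPL12, RPL17, RPL29, RPL37 and RPS29, and the lower were RPL7L1, RPL19, RPL21, RPLP1, RPS12 and RPS19. Of the lower members, all but RPL7L1 had a positive log2 fold change against control in the main fit. With shLMO2-2, 14 members were called (33.1% of all genes), with shLMO2-1 4 (9.14%), and between hairpins 1, RPL19, against 0.19% of all genes (-0.35, SE 0.06, adjusted p = 0.0442).

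These calls rested on few libraries. Without control 3, 3 members were called in the mean of both, 6 with shLMO2-2 and 0 with shLMO2-1. The count with shLMO2-1 was also 0 without libraries 2 or 3 of shLMO2-1, 2 without its library 1, and 1 without libraries 1 or 2 of shLMO2-2. Without control 1 and without each of 5 hairpin libraries, the count for the mean of both was 7 to 9, and leaving out any of the shLMO2-2 libraries brought the count with shLMO2-2 to 5 to 8. RPS29 (0.52, SE 0.09, adjusted p = 0.00522), RPL29 (0.24, SE 0.05, adjusted p = 0.00807) and RPS12 (-0.27, SE 0.05, adjusted p = 0.00674) were called in the mean of both in all 9 fits that left out a library, with log2 differences from the pool of 0.45 to 0.59, 0.22 to 0.25 and -0.28 to -0.25. With shLMO2-2, 5 members were called in all 9, among them RPL11, RPL37 and RPS29 as higher and RPL19 as lower. The RPL19 call between the hairpins was lost in 8 of the 9, and with shLMO2-1 no member was called in all 9.

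The size of the change was set beside features of the genes. Across the 82 members, which share their libraries and are not independent, the log2 fold change of the mean of both hairpins had Pearson's r of -0.27 and Spearman's rho of -0.10 with log2 transcript length, 0.06 and 0.02 with GC percent, and 0.00 and -0.08 with log2 mean CPM. RPL7L1 has the longest median transcript, 3769 nt, and the only negative fold change (-0.24). Pearson's r without this gene was not computed. Members with the pyrimidine run at the listed start had a median of 0.32 with 25 of 47 called higher, and members with an entry and no run had 0.26 with 9 of 19. The rule reads from the listed start only. Some members without a run there, such as RPL17 and RPL36AL, have a row of pyrimidines just before it, so this does not separate TOP from other mRNAs. Other genes with the run had a median of 0.03, with 72 of 723 called higher and 44 lower, and other genes without it -0.01. The 3011 short genes that are not members had a median of 0.03, with 264 called higher and 156 lower. Correcting every library for its trends over GC content and length, also added after the data had been seen, left 22 members called with shLMO2-1, 43 with shLMO2-2 and 44 in the mean of both, with medians of 0.21, 0.30 and 0.26.

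Other genes of translation and of ribosome assembly were read from lists, for the mean of both hairpins. FAU, which encodes a small-subunit protein fused to a ubiquitin-like protein, had a log2 fold change of 0.22 (adjusted p = 0.206), and RACK1, a small-subunit scaffold, had 0.27 (adjusted p = 0.0603). Of 24 other TOP transcripts and translation factors, 7 rose and 1 fell, with a median of 0.13, where 6.47% of all genes were called higher and 5.93% lower. The median was 0.07 without control 1. EEF1G, a subunit of the elongation factor that reloads eEF1A, was at 1807 to 2343 CPM in control and 2515 to 3109 CPM over the hairpin libraries (0.41, SE 0.08, adjusted p = 0.0104). EEF2, the translocation factor, rose by 0.32 (SE 0.06, adjusted p = 0.0082), and SNHG12, a snoRNA host gene, fell by 0.79 (SE 0.13, adjusted p = 0.00344). The list gave 4 higher without control 3 or without the second shLMO2-2 library.

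Of 40 ribosome biogenesis genes, which make and assemble the particles, 15 fell, 0 rose and 25 did not pass the test, 8 of the 40 having positive values, with a median log2 fold change of -0.19, where 5.93% of all genes were called lower. With each hairpin alone, 9 fell with shLMO2-1 and 7 with shLMO2-2, against 3.88% and 4.04% of all genes called lower. LTV1, an assembly factor of the small subunit, was at 48.3, 38.6 and 37.5 CPM in control, 32.5, 31.1 and 27.6 CPM with shLMO2-1 and 26.5, 27.2 and 27.6 CPM with shLMO2-2 (-0.53, SE 0.09, adjusted p = 0.00459). BYSL, another small-subunit assembly factor, was at 54.4, 54.0 and 46.7 CPM in control and 34.5 to 43.2 CPM over the hairpin libraries (-0.47, SE 0.09, adjusted p = 0.00726). In both genes all hairpin libraries lay below all controls. The count of 15 became 8 without control 1, without control 3, without the second shLMO2-1 library and without the first shLMO2-2 library, and 9 without each of the first shLMO2-1 library and the second and the third shLMO2-2 libraries, with 0 higher in every case.

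**Figure D5:**
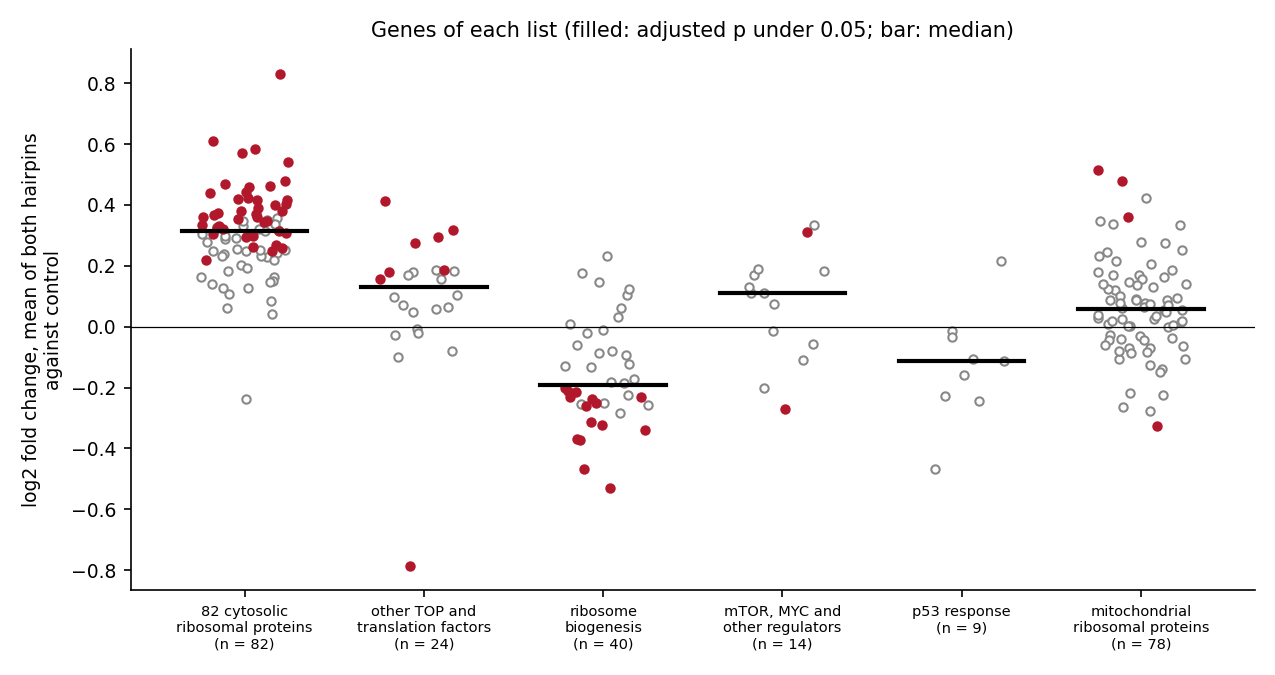
log2 fold change of the mean of both hairpins against control for the genes of each list (points, filled where the adjusted p was under 0.05), with the list's median as a bar. The 82 ribosomal proteins have a median of 0.31 and the 40 ribosome biogenesis genes one of -0.19.

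Of 14 regulators of ribosomal protein mRNAs, 1 rose and 1 fell, a share near the 6.47% and 5.93% of all genes called higher and lower. Their median was 0.11, and 0.07 without control 1 or without control 2. MAX, the partner of MYC, had a log2 fold change of 0.31 (SE 0.08, adjusted p = 0.0225), and MTOR, the kinase that controls TOP translation, one of -0.27 (SE 0.07, adjusted p = 0.0228). Both calls were lost without control 3, with adjusted p of 0.1 for MAX and 0.0566 for MTOR, and without the second shLMO2-2 library neither direction had a call. The count was also 0 higher without the second shLMO2-1 or the third shLMO2-2 library, and 0 lower without control 1. Among the 9 p53 response genes that were tested, edgeR called 0 in the mean of both, with a median of -0.11 and 1 higher and 2 lower at an unadjusted p under 0.05. With limma-voom, with total counts or with at least 10 counts in every library, 1 was called lower. With shLMO2-2 alone edgeR called 1 lower, the death receptor gene FAS (-0.59, SE 0.17, adjusted p = 0.0486), named after its values were seen. Of 78 proteins of the mitochondrial ribosome, 3 rose and 1 fell with a median of 0.06, shares below the 6.47% and 5.93% of all genes. DESeq2 called 7 higher and 2 lower, the fit with no filter 8 and 1, and the fit corrected for GC content and length 8 and 5. MRPL23 had 0.51 (SE 0.12, adjusted p = 0.02), MRPL48 0.48 (SE 0.11, adjusted p = 0.0154) and MRPS10 -0.33 (SE 0.07, adjusted p = 0.0103). Over the 9 fits without a library the mitochondrial list gave 0 to 5 higher and 1 to 3 lower, with 0 higher and 1 lower without control 3, and 1 higher and 3 lower without control 1. Its median was -0.01 without control 1, 0.10 without control 2, and 0.03 without the third library of either hairpin.

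Near-identical copies limit what the counts of single members can say. The table holds 1143 rows named as pseudogene copies of 77 members, 234 of them with any count, and 81 members had a count that was not whole in at least 1 library. For the median member these copies held 0.0055% of the summed count, but for RPL23A they held 50.7%, for RPS2 8.1% and for RPL22 5.68%, and those 3 are uncertain. Of the 30 copies that were tested, 5 were called higher and 0 lower in the mean of both, with a median of 0.54, where 6.47% of all genes were called higher. Without control 3, 2 were called higher, and without control 1 the median was 0.36. Summing each member with its copies left the members' counts of calls within 1.5 times of the values given above. Same-strand exons of another gene overlap those of 11 members, and opposite-strand exons only those of a further 15.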

How the data were processed

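RNA-seq of 9 MDA-MB-468 libraries in 3 groups was analysed, with each library placed by the plasmid named in its labels. The deposited values are estimated counts per gene symbol, 1 table of 56809 rows made by the authors, of which 11.7% to 12.8% per library were not whole. The submitters' processing notes name Salmon 0.12, DESeq2 1.22.2 and GRCh38.p12 without saying what each was used for, and the use of strand is not given in the sources used here. Per the labels' protocols, RNA was selected by poly(A) tail before library preparation with the NEBNext Ultra II kit.

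Estimated counts were rounded to whole numbers. edgeR 4.0.16 (R 4.3.3) was used with TMM scaling and filterByExpr (minimum count 10, minimum total 15), which kept 14708 genes, and LMO2 was added back. All 14709 genes entered a quasi-likelihood fit with 3 groups, and p-values were adjusted by Benjamini-Hochberg over all of them, with calls at an adjusted p under 0.05. All 82 members passed the filter. Standard errors were derived from the log2 fold change and its F statistic. CPM uses TMM-scaled totals, except for the choice of members, the cell type markers and the shares of counts, which use plain totals. Median transcript length, GC content, gene coordinates and exon overlaps come from GENCODE 29 by symbol, and start windows from RefSeq (GRCh38.p14). The fitting code was tested on simulated data.

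The members, gene lists and tests were chosen with earlier results of these data known. Named members were, in each comparison, up to 10 called members with the largest change in each direction, together with the paralogs and their parents, the stalk proteins, RPSA, RPS27A, RPL5, RPL11, RPL41, RPS6 and RPS19, the 3 with the highest and the 3 with the lowest mean CPM, and the 5 with the largest within-group SD. From each list up to 2 higher and 2 lower genes were named. Alternatives were other scalings (median of ratios, upper quartile, total counts, TMM without the members), other filters, DESeq2 1.42.0, limma-voom (limma 3.58.1), only the groups compared, a replicate block, sums with pseudogenes, and leaving out each library. No library was counted as a duplicate, since chi-square values between libraries within groups were 5.04 to 27.7 per gene. A few genes are not reported here by name; they remain in the fits and in the counts.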

Additional observations from a re-analysis of the deposited data

How the results depend on the processing

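The number of members called varied with the setting, and members called lower appeared only with no filter and relative to the pool. With shLMO2-1 (15 members called) it was 46 with no filter on low counts, 45 higher and 1 lower, 7 with only the groups compared, 4 relative to the pool of members, and 3 to 17 when a library was left out. With shLMO2-2 (41) it was 71 with no filter, 14 relative to the pool and 13 to 59 without a library, and for the mean of both (42) it was 70, 14 and 15 to 59. Between the hairpins (0) it was 7 with no filter, 2 with DESeq2, 1 relative to the pool and 0 to 1 without a library. The cause of the change without a filter was not tested. Medians of the members left the range of their spread only relative to the pool, where they are near 0 by construction (0.008, 0.0093 and 0.008). Relative to the pool, leaving out a library gave 0 to 5 members called with shLMO2-1, 5 to 15 with shLMO2-2, 3 to 14 for the mean of both and 0 to 1 between hairpins.

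Whether replicate numbers pair the libraries was not settled, and the main fit had no replicate block. Each library's deviations from its group mean were correlated between groups. Such deviations cancel out within a group, so the correlations depend on each other and cannot decide it. The libraries numbered 2 had correlations of -0.016, -0.063 and 0.052, below 0.1, and control 2 correlated best with the third shLMO2-2 library (0.182). The libraries numbered 1 had 0.296, 0.234 and 0.251, those numbered 3 had 0.212, 0.14 and 0.204, and pairs of a 1 with a 3 had -0.308 to -0.153. With a replicate block the numbers called were 47, 70, 69 and 2, against 15, 41, 42 and 0 without it. The lists then gave 10 higher and 3 lower mitochondrial ribosomal proteins, 2 and 2 regulators, and 2 lower p53 response genes.

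For the named genes, 2444 values kept direction and side of the threshold under an alternative, 97 came past it, 187 fell short of it and 10 changed sign, all 10 of them small values that had not passed. With GC and length trends removed RPLP2 had -0.024 with shLMO2-1. The other sign changes came from leaving out a library. With shLMO2-1, RPL13 ranged from -0.048 to 0.24, RPL26L1 from -0.022 to 0.13 and RPLP1 from -0.036 to 0.16, each lowest without control 1. RPL39 ranged from -0.033 to 0.17 and RPLP2 from -0.018 to 0.199, each lowest without the third shLMO2-1 library, where RPLP1 had -0.0060. RPLP2 had -0.013 without control 1. RPL22L1 ranged from -0.196 to 0.0092 with shLMO2-1, highest without its second library, and from -0.0032, without the first shLMO2-1 library, to 0.0986 in the mean of both. The log2 ratio of RPL22L1 to RPL22 ranged from -0.0585 to 0.0205, and was 0.014 and 0.0205 without the second and the third shLMO2-1 library. With 3 libraries per group, depth limits LMO2, which rests on 1 to 35 counts, more than it limits the members.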
